A study of Homo sapiens with 2 samples.

Results

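The 6 genes of the GATA transcription factor family, GATA1 to GATA6, and EEFSEC, the gene next to GATA2, were examined for enhancer and promoter marks in a drug-resistant prostate cancer line. Every called peak on the body of 1 of these 7 genes or within 100 kb either side was included, with gene bodies taken from RefSeq on GRCh38. The 7 genes come from 19974 protein-coding genes on chromosomes 1 to 22 and X. Their windows held 121 distinct H3K27ac peaks of 64784 and 209 distinct H3K4me1 peaks of 139511. The windows of GATA2 and EEFSEC overlap and share 25 H3K27ac and 28 H3K4me1 peaks, which are counted once in these totals. The cells are C4-2B, a human prostate cancer line of the LNCaP lineage, selected by growth for at least 6 months in enzalutamide, a drug that blocks androgen signalling. Both groups are this 1 resistant line, and each consists of 1 CUT&Tag library, prepared from 100000 cells with an antibody to H3K27ac or to H3K4me1. Parental cells, replicates and a background library were not analysed here. The values therefore describe 2 libraries, and no test between conditions or replicates was possible.

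GATA factors are zinc-finger proteins that bind DNA at the short sequence for which they are named, and several of them can bind sites in closed chromatin. GATA1 and GATA2 are best known from blood cell development, GATA3 from T cells and the breast, and GATA4, GATA5 and GATA6 from heart and gut. GATA2 also acts in prostate cells, where it binds with FOXA1 at enhancers that respond to androgens. EEFSEC encodes the elongation factor that brings selenocysteine to the ribosome, and its long introns lie downstream of GATA2. H3K27ac is a histone mark of active promoters and enhancers, and H3K4me1 is found at enhancers whether active or not and beside promoters.

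Each peak has a fold enrichment, the authors' ratio of the signal at its highest point (the summit) to the local background. The number of fragments piled up at the summit was recovered from the deposited fold enrichment and significance, and is called the pileup below. Over all peaks the median pileup was 13 for H3K27ac (4 to 772) and 18 for H3K4me1 (4 to 480). A range in parentheses after a pileup is its 95% interval by the exact Poisson method, and one after a share is by the exact Clopper-Pearson method. Neither covers more than counting error. No called peak held fewer than 4 fragments, so a place without a peak may still carry a weak mark. At gene starts, H3K27ac lay at 9 of 9 prostate luminal markers, among them KLK3 and HOXB13, where 62.6% of all protein-coding genes had it. The same mark was called at 3 of 6 blood, 0 of 4 endothelial, 0 of 3 fibroblast and 0 of 3 basal epithelial markers. The blood markers SPI1 (31 fragments) and CD3E (14) had it, while PTPRC, HBB and TAL1 had none.

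H3K27ac peaks were concentrated around GATA2 and EEFSEC and were few around GATA3 and GATA6. The windows of GATA2 and EEFSEC together held 74 of the 121 H3K27ac peaks and 105 of the 209 H3K4me1 peaks. The other 5 GATA windows held 47 and 104, of which 7 and 14 lay on the GATA gene itself. Almost every protein-coding gene had at least 1 peak of each mark in a window of this kind (94.1% for H3K27ac and 96.8% for H3K4me1), as all 7 genes did, so densities are given instead. The H3K27ac density was 13.1 peaks per 100 kb around GATA2 and 15.0 around EEFSEC, against a median of 3.83 over all protein-coding genes. These densities stood at the 96.5 and 98.3 percentiles of all genes. With 50 kb either side, a window that does not reach EEFSEC, GATA2 had 10.5 H3K27ac peaks per 100 kb (percentile 87.9). GATA5 stood at percentile 81.3 with that window. With 100 kb either side, GATA5 followed GATA2 with 9.41 peaks per 100 kb (percentile 86.9). GATA1 with 4.33 and GATA4 with 4.24 were close to the median, at percentiles 54.5 and 53.7. GATA6 had 2.15 (percentile 31.1) and GATA3 had 0.435 (percentile 8.20). The place of these genes depended on the window, since over the gene body alone GATA6 stood at percentile 58.5 and GATA3 at 45.2, and with 50 kb either side GATA3 stood at 14.2. GATA3 thus had 1 H3K27ac peak in 229.9 kb.

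H3K4me1 separated the genes less. EEFSEC had 104 H3K4me1 peaks in its window of 472.7 kb (percentile 98.2). The density was 14.1 peaks per 100 kb around GATA5 and 13.6 around GATA2, against a median of 7.16 over all genes. GATA3 had 8.70, GATA4 7.77, GATA6 7.30 and GATA1 7.22, at percentiles 61.1, 54.4, 51.0 and 50.4. With 50 kb either side the H3K4me1 percentile of GATA3 was 31.1, and 11 of its 20 H3K4me1 peaks lay in another gene, TAF3. None of the 20 H3K4me1 peaks around GATA3 overlapped H3K27ac, in a window with 1 H3K27ac peak. Elsewhere 5 of 17 H3K4me1 peaks around GATA6, 8 of 22 around GATA4, 14 of 30 around GATA5 and 10 of 15 around GATA1 did. Around GATA2 18 of 29 did, and around EEFSEC 58 of 104. Counted the other way, 17 of 28 H3K27ac peaks around GATA2 and 57 of 71 around EEFSEC overlapped H3K4me1. So did 8 of 9 around GATA1, 8 of 12 around GATA4, 13 of 20 around GATA5 and 5 of 5 around GATA6. Inside all protein-coding genes, away from gene ends, the shares were 32.8% for H3K4me1 and 70.1% for H3K27ac. Peaks of at least 50 fragments made up 20 of 74 H3K27ac and 46 of 105 H3K4me1 peaks around GATA2 and EEFSEC. In the other 5 windows combined they made up 9 of 47 and 20 of 104. Over all genes they made up 9.05% and 14.7% of the peaks in bodies away from gene ends, whereas the windows also include gene ends.

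**Figure D1:**
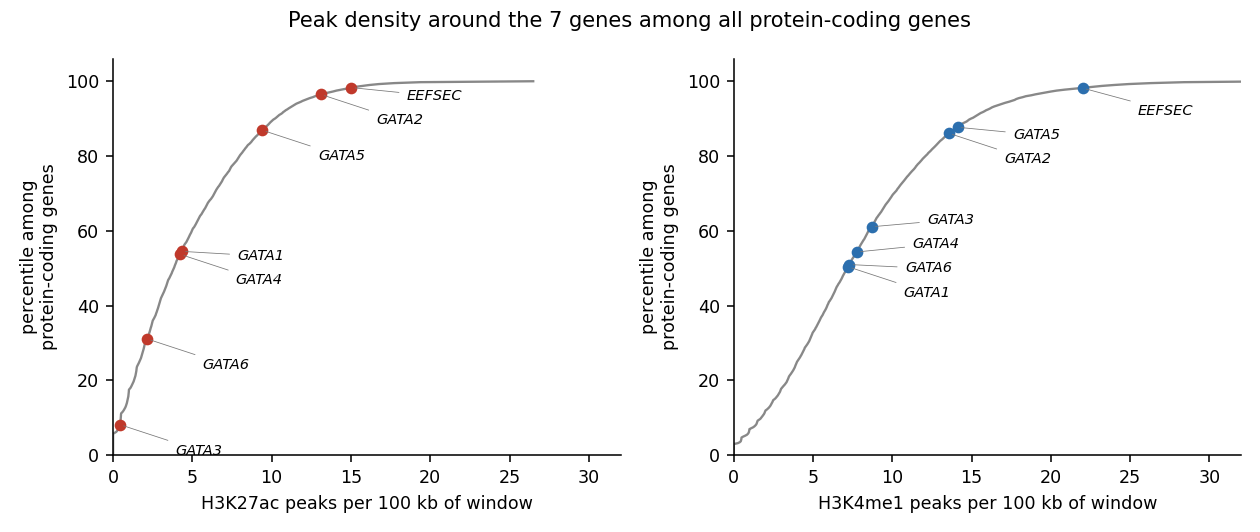
Each point is 1 of the 7 genes, placed by its peaks per 100 kb of window (x axis) and its percentile among 19974 protein-coding genes (y axis), and the grey line is the distribution over all genes. EEFSEC and GATA2 lie near the top for H3K27ac, at 15.0 and 13.1 peaks per 100 kb, and GATA3 near the bottom at 0.435, while for H3K4me1 no GATA gene lies below the median of 7.16.

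The windows were fixed by distance, so many peaks in them lay on or near other genes. Which gene a peak acts on was not tested. Of the 47 H3K27ac peaks around the other 5 GATA genes, 14 (29.8%) lay within 2.5 kb of the end of another protein-coding gene. In the GATA1 window the deepest H3K27ac peaks were at HDAC6 (128 fragments), a deacetylase gene, and SUV39H1 (95), a histone methyltransferase gene. The third, of 54 fragments, lay outside protein-coding genes, 48.9 kb on the lower-coordinate side of the GATA1 start. In the GATA4 window the deepest lay in CTSB (112), which encodes a lysosomal protease, and in FDFT1 (100 and 73), a cholesterol synthesis gene. In the GATA5 window they were at the adjoining ends of RPS21 and CABLES2 (109), at CABLES2 (74) and at the laminin gene LAMA5 (69). Other genes with H3K27ac at their starts were WAS, GLOD5, PCSK1N and TIMM17B near GATA1, NEIL2 near GATA4 and RBBP8NL near GATA5. The 3 deepest H3K27ac peaks around GATA5 were thus at the ends of other genes, the nearest of them 56.7 kb from GATA5. Of all 20, 7 lay at such ends, 11 outside protein-coding genes and 2 on the GATA5 body. Those outside protein-coding genes included a peak of 43 fragments with its summit 19.7 kb from GATA5. This peak contains the start of LOC124904947, a noncoding RNA gene, at 62496014.

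**Figure D2:**
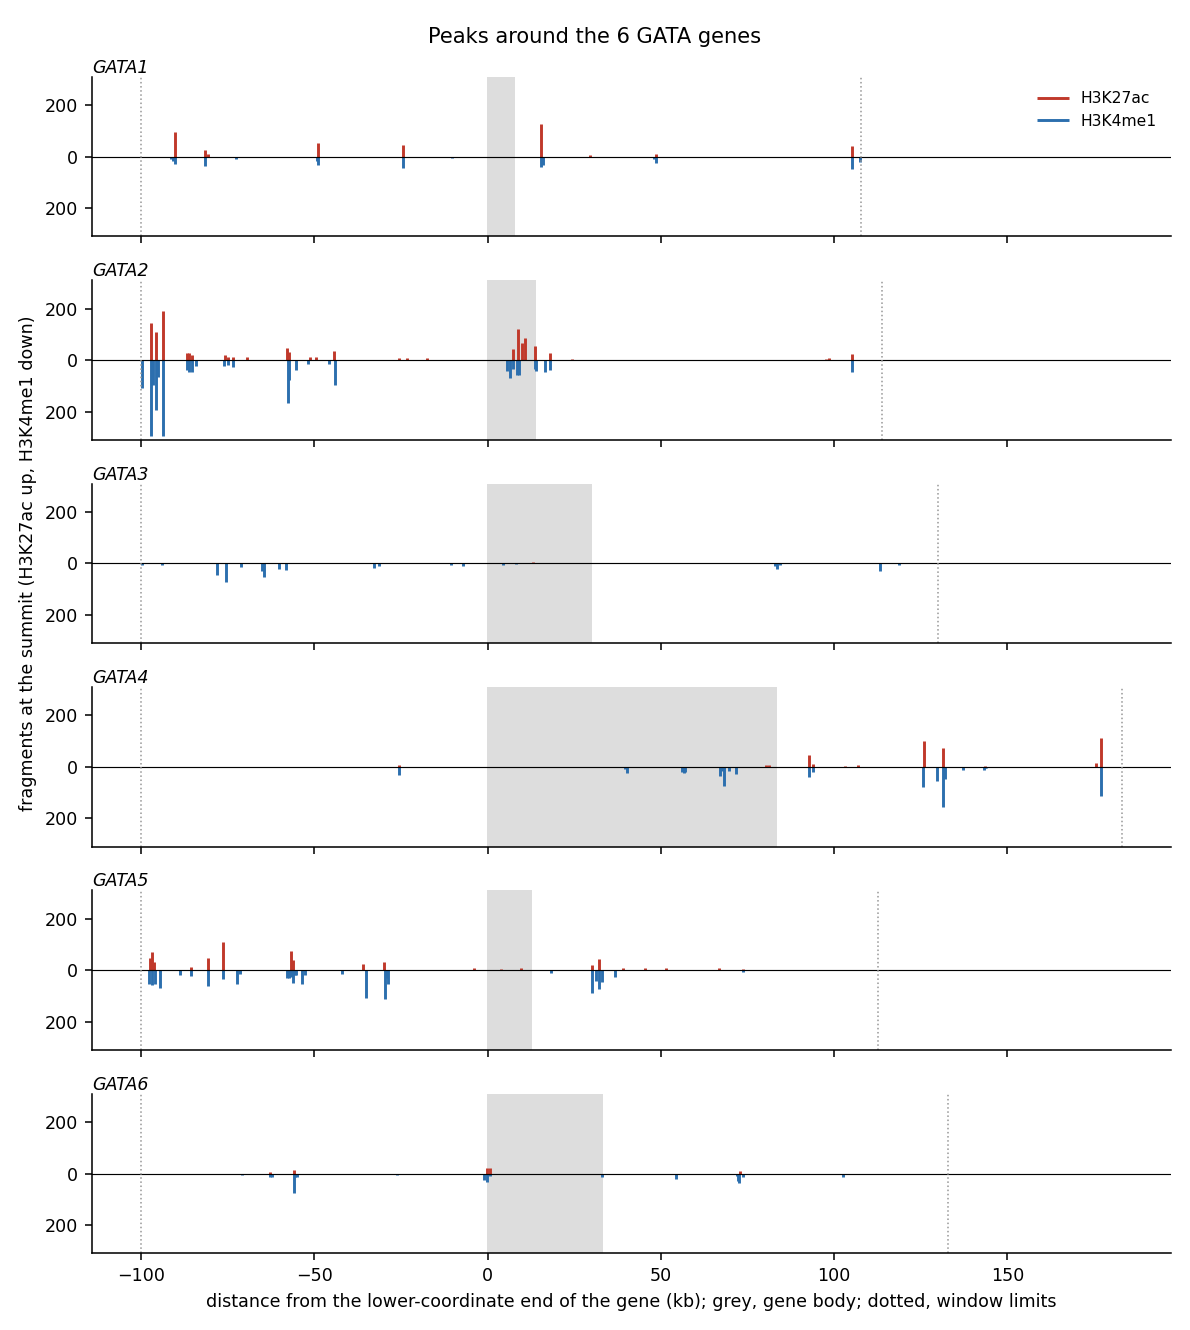
Each line is a peak, drawn at its summit, with its pileup in fragments upward for H3K27ac and downward for H3K4me1, against distance in kb from the lower-coordinate end of the gene. The gene bodies (grey) of GATA1, GATA3, GATA4 and GATA5 carry no H3K27ac peak above 9 fragments, whereas that of GATA2 carries 5 peaks of 44 to 122 fragments.

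A gene counted as marked at its start when a peak lay within 1 kb of it. Starts came from the RefSeq promoter table for 5 of the 7 genes, and for GATA4 and GATA5 either end of the gene was used. H3K27ac was called at the starts of GATA2, GATA6 and EEFSEC, 3 of the 7 genes, where 62.6% of all protein-coding genes had it. H3K4me1 was called at these 3 and at GATA3 (4 of 7, against 65.4%). Both marks were present at 3 of 7 genes (59.5% of all genes), and neither mark at GATA1, GATA4 and GATA5 (3 of 7, against 31.5%). GATA3 alone had H3K4me1 without H3K27ac, which 5.91% of all genes had. The difference between these 7 genes and all genes was not tested.

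The promoters of the genes are shown to let their marking be read against their sequence. Each line gives the 250 bases before a listed start, 5′ to 3′ on the strand of the gene, from RefSeq on GRCh38.p14, and capitals mark the bases that lie inside an H3K27ac peak.
GATA2, inner start (chr3:128488531-128488780, minus strand): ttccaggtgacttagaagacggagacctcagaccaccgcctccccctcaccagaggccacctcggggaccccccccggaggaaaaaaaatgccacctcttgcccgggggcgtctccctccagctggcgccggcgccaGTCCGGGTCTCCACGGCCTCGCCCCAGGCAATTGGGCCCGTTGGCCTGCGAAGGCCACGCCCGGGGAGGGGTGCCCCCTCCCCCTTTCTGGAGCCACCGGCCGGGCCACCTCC
GATA2, outer start (chr3:128493202-128493451, minus strand): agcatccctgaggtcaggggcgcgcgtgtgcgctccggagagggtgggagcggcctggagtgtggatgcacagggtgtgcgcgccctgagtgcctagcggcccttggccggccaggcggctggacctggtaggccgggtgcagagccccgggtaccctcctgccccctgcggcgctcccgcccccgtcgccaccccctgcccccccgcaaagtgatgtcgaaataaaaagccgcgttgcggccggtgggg
GATA6 (chr18:22169339-22169588, plus strand): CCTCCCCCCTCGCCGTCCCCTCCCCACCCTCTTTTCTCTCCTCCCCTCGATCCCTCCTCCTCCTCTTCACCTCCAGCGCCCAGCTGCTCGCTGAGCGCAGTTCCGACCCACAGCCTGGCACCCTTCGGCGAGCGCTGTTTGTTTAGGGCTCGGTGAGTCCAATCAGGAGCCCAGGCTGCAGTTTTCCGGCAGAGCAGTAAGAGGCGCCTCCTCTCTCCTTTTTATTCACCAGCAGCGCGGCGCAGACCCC
EEFSEC (chr3:128153231-128153480, plus strand): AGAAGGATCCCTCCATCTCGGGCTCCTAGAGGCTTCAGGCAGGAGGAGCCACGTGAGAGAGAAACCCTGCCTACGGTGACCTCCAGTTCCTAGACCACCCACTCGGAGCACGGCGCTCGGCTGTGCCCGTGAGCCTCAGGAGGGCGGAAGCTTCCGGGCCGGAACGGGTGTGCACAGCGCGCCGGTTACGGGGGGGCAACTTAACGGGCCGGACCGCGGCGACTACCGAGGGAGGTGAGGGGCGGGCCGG
GATA3, the start at 8053641 (chr10:8053391-8053640, plus strand): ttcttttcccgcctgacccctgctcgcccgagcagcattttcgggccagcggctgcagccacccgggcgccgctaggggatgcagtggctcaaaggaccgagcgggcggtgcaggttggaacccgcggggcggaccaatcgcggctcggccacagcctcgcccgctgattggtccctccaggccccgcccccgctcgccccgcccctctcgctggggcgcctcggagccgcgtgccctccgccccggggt
GATA1 (chrX:48786340-48786589, plus strand): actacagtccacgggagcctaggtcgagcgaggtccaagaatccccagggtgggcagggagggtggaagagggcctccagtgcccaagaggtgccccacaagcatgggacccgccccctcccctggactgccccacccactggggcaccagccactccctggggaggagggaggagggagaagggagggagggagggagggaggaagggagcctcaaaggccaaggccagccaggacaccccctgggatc
At GATA2 the H3K27ac peak covered the 113 bases nearest the inner start, while none of the 250 bases before the outer start lay in an H3K27ac peak. All 250 bases before the GATA6 and EEFSEC starts lay in one. Base composition did not sort the marked from the unmarked promoters here. The GATA3 promoter shown had a GC content of 74.8% and 30 CpG dinucleotides, the highest of the 6 listed for GATA3. The others of GATA3, also without H3K27ac, had 55.6% to 73.6% and 4 to 26. The GATA2 promoters had 71.2% and 72.8% with 18 and 24, and GATA6 had 64.4% with 16. EEFSEC and GATA1 both had 68.4%, with 24 and 4 CpG dinucleotides. The medians over 22132 promoters of protein-coding genes were 62% and 16. The GATA recognition sequence was searched on both strands in the form AGATAA and the variant AGATAG. The forms that begin with another base, TGATAA and its variant TGATAG, were also searched. A match was found in 0 of the 11 promoters of the 5 genes with listed starts, and in 17.8% of all promoters of that length.

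GATA2 had the deepest marks at a start among the GATA genes. The gene lies on the minus strand of chromosome 3 (128479422 to 128493201) and has listed starts at its outer end, 128493201, and further in, at 128488530. At the inner start an H3K27ac peak at 128487778 to 128488643 held 122 fragments (101 to 146), which was the 86.6 percentile of all genes for the deepest peak at a start. H3K4me1 there reached 58 fragments (44.0 to 75.0), the 84.7 percentile. At the outer start the H3K27ac peak held 53 fragments (39.7 to 69.3) and ended 0.139 kb inside the gene, and the deepest H3K4me1 peak held 41 (29.4 to 55.6). The intervals for H3K27ac at the inner and outer starts do not overlap, and those for H3K4me1 do. Between the starts lay further H3K27ac peaks of 65 and 87 fragments, neither of which overlapped H3K4me1. The first of these, at 128489180 to 128489568, contains the start of GATA2-AS1, a noncoding RNA gene on the opposite strand, at 128489203. The fifth H3K27ac peak of the body, of 44 fragments, lay at 128486743 to 128486955, downstream of the inner start.

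H3K27ac was the deeper mark where both marks met in the GATA2 body. In the 3 places where they overlapped, the H3K27ac pileup was the higher, at 122 against 58, 53 against 35 and 44 against 33 fragments. The deepest H3K4me1 peak of the body, of 71 fragments at 128485642 to 128486354, and its neighbour of 43 fragments at 128485085 to 128485446 overlapped no H3K27ac peak. The order at the shared places is the usual one at gene starts, since H3K27ac was the deeper mark in 76.4% of the 11890 genes that had both marks at a start. The 5 H3K27ac peaks differed from other peaks of like depth in their fold enrichment, which was 2.18 to 5.43. H3K27ac peaks within 10% of the same pileup had median folds of 10.2 to 14.5, and the GATA2 peaks lay between the 0.224 and 4.25 percentiles of those. The fold is taken over the local background, which was recovered at 19.0 to 22.8 fragments in GATA2, against a median of 1.05 over all H3K27ac peaks. Only 1.02% of all H3K27ac peaks had a background as high as the lowest of these 5. Whether this background came from H3K27ac signal spread over the gene or from another source was not tested. Ranked by fold alone, the 122-fragment peak stood at the 42.3 percentile of all H3K27ac peaks, and ranked by pileup at the 95.5 percentile.

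**Figure D3:**
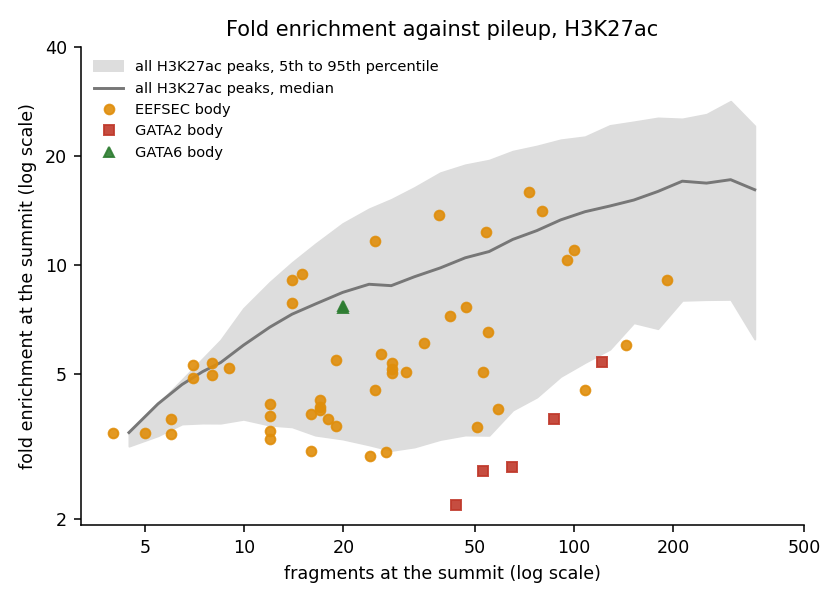
Fold enrichment at the summit (y axis, log scale) against pileup in fragments (x axis, log scale) for the H3K27ac peaks on the bodies of EEFSEC, GATA2 and GATA6; the grey band spans the 5th to 95th percentile of all H3K27ac peaks and the line is their median. The 5 GATA2 peaks, of 44 to 122 fragments and folds of 2.18 to 5.43, lie below the band, and the 2 GATA6 peaks of 20 fragments lie just below the median line.

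GATA6, a factor of the endoderm and heart, was the other GATA gene with H3K27ac at its start (chromosome 18, 22169589). A peak over the start and another 0.763 kb downstream each held 20 fragments (12.2 to 30.9). H3K4me1 at the start held 31 fragments (21.1 to 44.0). Among genes with a marked start the median was 71 fragments for H3K27ac and 35 for H3K4me1, so the GATA6 H3K27ac peaks were shallow and its H3K4me1 peak ordinary. The H3K27ac intervals of GATA6 and of the inner GATA2 start do not overlap. GATA6-AS1, transcribed the other way from 22168968, has the first of these H3K27ac peaks and the H3K4me1 peak within 1 kb of its start. The deepest H3K4me1 peak in the window, of 74 fragments, lay 56.0 kb before the GATA6 start with an H3K27ac peak of 13 on the same place. No other H3K27ac peak in the window exceeded 9 fragments.

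GATA3, which is strongly associated with luminal breast cells and T cells, carried almost no H3K27ac. Its only peak (chromosome 10, 8058462 to 8058635) held 5 fragments (1.62 to 11.7) and lay inside the gene, 1.82 kb from the nearest of its 6 listed starts. H3K4me1 peaks of 6 (2.20 to 13.1) and 4 fragments (1.09 to 10.2) lay at the starts at 8049854 and 8053641. The GATA3-AS1 starts on the opposite strand lay within 1 kb of the latter peak and had no H3K27ac. The deepest H3K4me1 peaks in the window, of 73, 51 and 44 fragments, were in the neighbouring gene TAF3, which encodes a general transcription factor subunit. The breast luminal marker ESR1 likewise had H3K4me1 (38 fragments) without H3K27ac at its starts, while TRPS1 had 49 and 22 fragments of H3K27ac and H3K4me1.

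GATA1, GATA4 and GATA5 had no peak of either mark within 1 kb of a start or end. No peak of either mark lay on the body of GATA1, the erythroid factor of the family (chromosome X, 48786590 to 48794311). The nearest H3K27ac peak was the one at HDAC6, 15.0 kb from the GATA1 start, with its summit 7.78 kb outside the body. On GATA4 (chromosome 8, 11676935 to 11760002), 10 H3K4me1 peaks of 9 to 73 fragments lay in the body and 0 of them overlapped H3K27ac. Over all genes, 32.8% of H3K4me1 peaks in gene bodies away from gene ends did, and the difference was not tested. The H3K27ac peaks of the GATA4 body held 8 and 9 fragments and lay near its higher-coordinate end, the closer 1.63 kb from it. GATA5 (chromosome 20, 62463497 to 62475995) had H3K27ac peaks of 5 and 7 fragments in its body and no H3K4me1 peak there. Widening the distance to 2.5 kb either side added GATA3 and GATA4 to the GATA genes with H3K27ac, through these shallow peaks. GATA4 was added only by its higher-coordinate end. Its strand is not listed, so the data used here do not show whether that end is a start. The share of all genes rose from 62.6% to 66.6%.

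EEFSEC had ordinary marks at its start and a large number inside. The gene lies on the plus strand of chromosome 3 (128153481 to 128426223), so its far end faces the far end of GATA2, which is read toward it. At its start H3K27ac held 73 fragments (57.2 to 91.8), close to the 71 of the median marked gene, and H3K4me1 held 26 (17.0 to 38.1) against 35. An end of the neighbouring gene RUVBL1, at 128153914, lies under the same H3K27ac peak, so that peak cannot be assigned to EEFSEC alone. Within the 272.7 kb of the gene body lay 49 H3K27ac and 78 H3K4me1 peaks. Among the 1396 protein-coding genes of at least 200 kb, the H3K27ac density of the EEFSEC body ranked 3, with 18.0 peaks per 100 kb against a median of 1.15. For H3K4me1 it ranked 6, with 28.6 against 4.56.

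The EEFSEC peaks away from gene ends were deeper than such peaks in other genes and carried both marks more often. Of 48 H3K27ac peaks more than 2.5 kb from any gene end, 42 overlapped H3K4me1 (87.5%, 74.8 to 95.3). Over the 29602 such peaks of all protein-coding genes the share was 70.1% (69.6 to 70.6). The share rises with depth, and within classes of pileup EEFSEC was close to other genes. At 4 to 9 fragments 5 of 9 EEFSEC peaks overlapped (44.1% over all genes), at 10 to 19 fragments 13 of 15 (85.5%), at 20 to 39 fragments 11 of 11 (96.6%) and at 40 or more 13 of 13 (97.8%). The median H3K27ac pileup in EEFSEC was 21.5 against 11 over all genes, with a median width of 315.5 bp against 217 bp. Peaks of at least 50 fragments made up 11 of the 48 (22.9%), against 9.05% over all genes. For H3K4me1 the median pileup was 40 against 18, and 33 of 75 peaks held at least 50 fragments (44%, against 14.7%). As at GATA2, the recovered background was high, with an H3K27ac median of 3.63 fragments against 0.888. The median H3K27ac fold was 5.06 against 5.47, so the fold did not show the greater depth.

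The marks coincided closely inside EEFSEC. The H3K27ac and H3K4me1 peaks formed 43 overlapping pairs, whose summits lay a median of 34 bp apart and within 150 bp in 37 pairs. H3K4me1 was the deeper mark at 42 of the 42 shared H3K27ac peaks, with a median ratio of 2.17. Over all genes it was the deeper at 86.6% of 20753 such peaks, with a median ratio of 2.25. This is the reverse of the order in the GATA2 body, where the shared peaks lay at or near gene starts. Across the 42 peaks the pileups of the marks had a Spearman correlation of 0.929. The peaks share their libraries and neighbouring peaks overlap in local signal, so this is a description only. The 6 H3K27ac peaks without H3K4me1 were shallow, with 4 to 17 fragments, whereas the 34 H3K4me1 peaks without H3K27ac held 8 to 107.

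**Figure D4:**
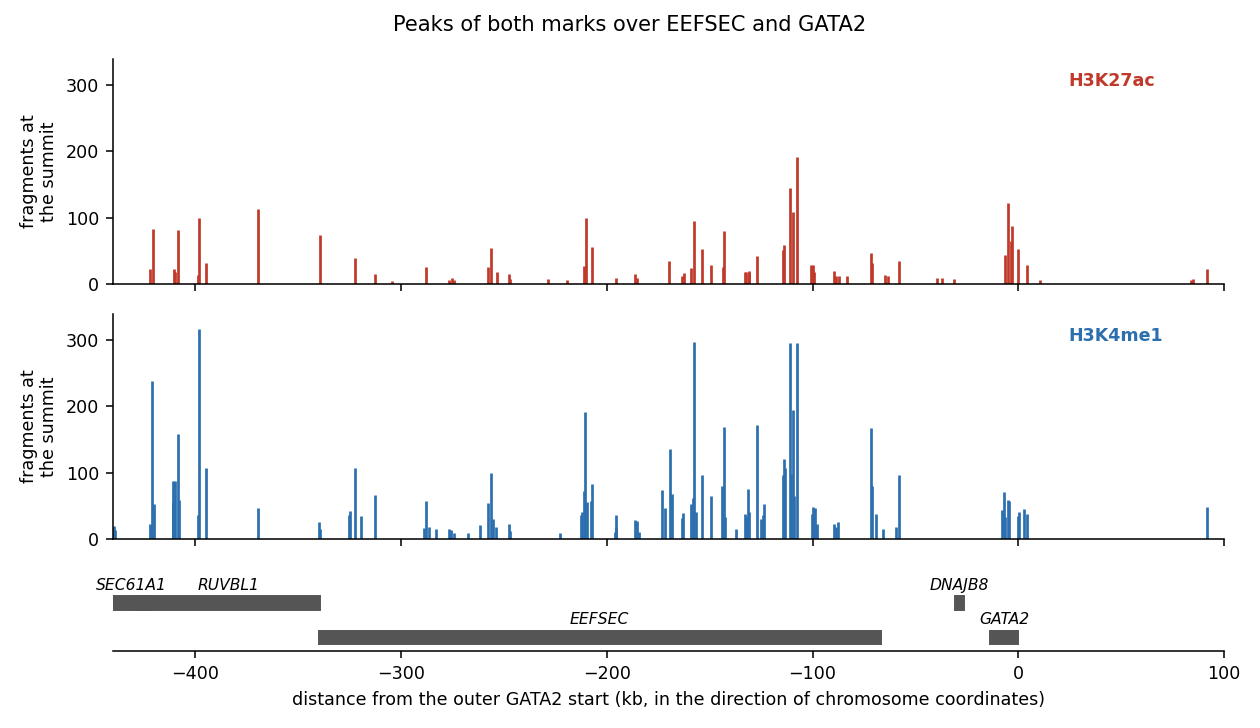
Pileup in fragments at the summit of each H3K27ac peak (top) and H3K4me1 peak (bottom) against distance in kb from the outer GATA2 start, with protein-coding genes below. The deepest H3K27ac peaks inside EEFSEC, of 144, 108 and 192 fragments, stand close to 110 kb from the outer GATA2 start, and those in GATA2 reach 122; beyond GATA2 a stretch of 73.0 kb is empty.

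Peaks in EEFSEC became denser toward GATA2. From its start to its far end, the gene was divided into 4 equal parts, which held 11.7, 14.7, 17.6 and 27.9 H3K27ac summits per 100 kb. The same parts held 19.1, 23.5, 32.3 and 38.1 H3K4me1 summits per 100 kb. The deepest H3K27ac peak of the whole locus lay in the last of these parts, at 128385114 to 128385947, with 192 fragments (166 to 221) and an H3K4me1 peak of 296 (263 to 332) over it. Beside it were H3K27ac peaks of 144 (128382233 to 128382508) and 108 fragments (128383458 to 128383875), with H3K4me1 peaks of 296 and 195. These 3 summits lay 107.5 to 110.9 kb downstream of the outer GATA2 start. The interval of the 192-fragment peak does not overlap that of the 122-fragment peak at the inner GATA2 start. Further back in the gene, an H3K27ac peak of 95 fragments at 128335410 to 128336169 had H3K4me1 of 298 over it. Another of 100 fragments, at 128282523 to 128283222, had H3K4me1 of 192. On the other side of the EEFSEC start, the deepest H3K4me1 peak of the locus, 317 fragments (283 to 354), lay in RUVBL1, an ATPase gene.

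The flanks of EEFSEC and GATA2 differed in their marks. The 100 kb before the EEFSEC start held 9 H3K27ac and 15 H3K4me1 summits, of at most 113 and 317 fragments. In the 53.2 kb between the genes lay 6 H3K27ac summits (11.3 per 100 kb) of at most 35 fragments and 3 H3K4me1 summits (5.64 per 100 kb) of at most 97. DNAJB8, a chaperone gene in this interval, had neither mark at its start. In the 100 kb beyond the outer GATA2 start lay 5 H3K27ac and 4 H3K4me1 summits. The widest stretch of the locus without H3K27ac, 128503863 to 128576907, spanned 73.0 kb and held 0 H3K4me1 peaks. Beyond it a single site at 128584490 to 128584731 had H3K4me1 of 48 fragments at a fold of 27.3 and H3K27ac of 23 fragments at a fold of 11.8. These folds were higher than that of any peak on the GATA2 body. The H3K27ac pileup was lower than that of any H3K27ac peak there, whereas the H3K4me1 pileup lay within the range there, 33 to 71 fragments.

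The series concerns super-enhancers, so nearby H3K27ac peaks were joined into regions with the gap usual in calling them (5 and 20 kb were alternatives). Peaks lying wholly at gene ends, by the distance of 2.5 kb, were left out, and regions were ranked by fold enrichment times length. Of 25235 joined regions 1326 were called super-enhancer-like. Such a region lay in the windows of GATA2, GATA4 and EEFSEC, 3 of the 7 genes, where 20.9% of all protein-coding genes had one. The regions in the GATA4 window ranked 150 and 416 and lay at FDFT1 and CTSB, 42.1 and 92.6 kb from GATA4. The region in the GATA2 window was that of EEFSEC, which ranked 7 and reached from 128323221 to 128435635 with 30 H3K27ac and 43 H3K4me1 peaks. It ended 43.8 kb from the far end of GATA2. EEFSEC held another, ranked 816 (128264667 to 128308335, 8 peaks), and the third region of its window, ranked 536, lay in RUVBL1. The region over GATA2 itself (128486743 to 128503862, 6 peaks) ranked 1920 and was not called. Ranked by pileup times length in place of fold times length, it stood at 275 and was called, and the EEFSEC region stood at 16. With a joining gap of 5 kb, under which 3945 regions were called, it was called at rank 3394. The GATA2 region was not called in the other 4 alternatives, whereas a region in EEFSEC was called in all 6, at ranks 4 to 62.

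Genes near GATA2 and EEFSEC ranged from deeply marked to unmarked at their starts. Of 7 neighbours on this part of chromosome 3, 6 had H3K27ac and 5 had H3K4me1, against 62.6% and 65.4% of all genes. The deepest were RPN1 (259 fragments, 228 to 293), SEC61A1 (252) and ACAD9 (228), genes of the secretory pathway and of mitochondrial oxidation, and RAB7A (217), a regulator of late endosomes. RUVBL1 had 113 and C3orf22 had 13, without H3K4me1. The H3K27ac pileup at the inner GATA2 start was thus lower than at 4 of these neighbours, and their intervals do not overlap that of GATA2.

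Proteins that work with GATA factors were listed to see which had marked starts. H3K27ac was found at 11 of 15 and H3K4me1 at 12, where 62.6% and 65.4% of all protein-coding genes had them, with a median H3K27ac pileup of 71 against 29 over all genes. The coactivator genes MED1 (191 fragments), EP300 (132) and CREBBP (83) were marked, as was LDB1 (116), the adaptor that links GATA factors to LIM proteins. ZFPM1, the cofactor also called FOG1, had 34 fragments of H3K27ac, and ZFPM2, its relative in the heart, had 0 with 11 of H3K4me1. The blood partners TAL1, LMO2 and FLI1 had neither mark, and RUNX1 had 19 fragments of H3K27ac and 70 of H3K4me1. LMO4, a relative of LMO2 found in epithelia, had 100 and 46. The prostate partners FOXA1, HOXB13 and GRHL2 carried both marks, with H3K27ac of 74 fragments at FOXA1, 111 at HOXB13 and 149 (126 to 175) at GRHL2. The 122 fragments of GATA2 lie between those of HOXB13 and GRHL2, and the intervals of all 3 overlap. For FOXA1 the pileup was lower than for GATA2, with intervals (58.1 to 92.9 and 101 to 146) that do not overlap.

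**Figure D5:**
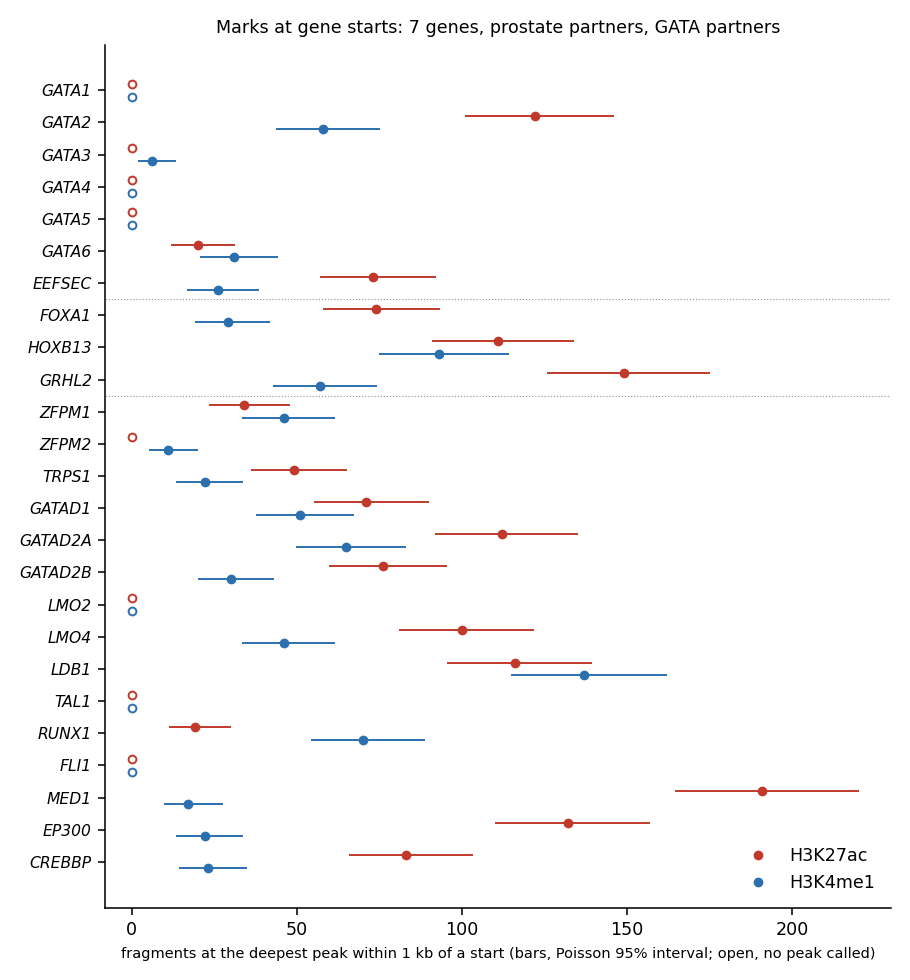
Pileup in fragments of the deepest peak within 1 kb of a start (points, with exact Poisson 95% intervals; open points, no peak called) for the 7 genes, 3 prostate partners and 15 GATA partners, divided by dotted lines. Among the GATA genes the H3K27ac points of GATA2 (122) and GATA6 (20) are filled, and among the partners those of ZFPM2, LMO2, TAL1 and FLI1 are open.

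The other listed genes of selenoprotein synthesis had H3K27ac at their starts in 7 of 7 cases (62.6% of all genes), from 45 fragments at SEPSECS to 156 at SECISBP2, which encodes the protein that binds the selenocysteine signal in messenger RNA. H3K4me1 lay at 6 of 7 (65.4% of all genes), the exception being SEPHS1. Of the 10 selenoprotein genes listed, 10 had both marks (59.5% of all genes), with H3K27ac from 51 fragments at SELENOP to 248 at SELENOT. GPX4, a lipid peroxide reductase gene, had 129 and 68 fragments and TXNRD1, a thioredoxin reductase gene, 97 and 40. The densities around these genes were mostly well below that of EEFSEC, although GPX4 had 21.2 H3K27ac peaks per 100 kb, above the 15.0 of EEFSEC.

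The genes most like GATA2 in marking were sought by the percentile ranks of 4 measures, the density in the window and the deepest pileup at a start for each mark. Likeness was the Euclidean distance over these ranks, computed for 19947 genes at least 1 Mb from GATA2, with a median of 89.5. The nearest were PDCD6 at a distance of 4.32, CFL1 at 4.93, FBXO24 at 5.03, LRCH4 at 5.19 and SLC26A6 at 5.48. PDCD6 had 14.8 H3K27ac peaks per 100 kb and 115 fragments at its start, and CFL1, an actin-binding protein gene, had 13.3 and 136. FBXO24 and LRCH4 are neighbours on chromosome 7 and share the start peaks of 144 and 61 fragments, so they count as 1 place.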

How the data were processed

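CUT&Tag libraries for H3K4me1 and H3K27ac, 1 each, were prepared from the enzalutamide-resistant C4-2B line with 14 cycles of PCR, per the labels' protocols. BWA, MACS2 and hg38 are named in the submitters' processing notes, and versions, settings and any background library are not given in the sources used here. The deposited peak lists hold, for each peak, a score, a fold enrichment (a ratio to the local background), and the authors' -log10 p-value and q-value. The highest deposited q was 0.0499 for H3K27ac and 0.0488 for H3K4me1.

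Peaks off the autosomes and X were left out, which kept 64784 of 64850 H3K27ac peaks and 139511 of 139692 H3K4me1 peaks. Sequencing depth is unknown. The pileup k and background were solved from the fold, (k + 1) over (background + 1), and the Poisson p. A whole k (within 0.001 in -log10 p or a relative 0.0001) was found for 100% of peaks. It was recovered exactly for 100% of 5000 simulated peaks per mark, while altered p-values came out whole in 8.32% (H3K27ac) and 7.26% (H3K4me1). The simulated peaks were mostly deeper than the real ones. Their background was capped relative to the pileup at a level that some GATA2 body peaks exceed, so such peaks were not covered. A second whole k also met the tolerance for 228 H3K27ac and 241 H3K4me1 peaks, of which 0 and 1 lay in the windows. Whether fragments or reads were counted, and whether PCR duplicates were removed, is not stated, and duplicates would make the intervals too narrow.

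Gene bodies came from RefSeq, and starts from its promoter table (GRCh38.p14) for 15812 of 19974 protein-coding genes. Either end was used for the other 4162. Overlap meant at least 1 bp. The members, gene lists and rules were chosen with earlier results of these data known, so percentiles and counts are descriptions. The named genes were the 7 members, the 3 deepest peaks of each mark per window, neighbours with H3K27ac at a start, the listed genes (some of them not reported here) and the 5 genes most like GATA2. Alternatives changed the peak threshold, window, overlap, joining gap and ranking. The planned motif search inside peaks was not run, because it needs a genome sequence, which was not used here. Python 3.11.15 was used with numpy 2.4.6, pandas 2.3.3, scipy 1.17.1 and matplotlib 3.10.9.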

Additional observations from a re-analysis of the deposited data

How the results depend on the processing

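Of 36 alternative values of the main results, 22 stayed close to the reported value, which for densities, counts and ranks means within 1.5 times and for the share of overlapping peaks within its 95% interval. Keeping only peaks with a -log10 q of at least 5 gave 7.48 H3K27ac peaks per 100 kb around GATA2, 9.10 around EEFSEC and 2.57 around the other 5 GATA genes together, and a minimum of 10 fragments also gave 2.57 for the latter. Over the gene body alone, GATA2 had 36.3 H3K27ac and 43.5 H3K4me1 peaks per 100 kb. With 2.5 kb either side of a start, 4 GATA genes had H3K27ac, of which GATA4 counted only by its higher-coordinate end, as no start is listed for it. With the q threshold, the share of EEFSEC H3K27ac peaks overlapping H3K4me1 was 96.6%. A region in EEFSEC was called each time, but its extent changed with some settings. It ranked 4 with at least 10 fragments, 16 by pileup times length and 46 with gene-end peaks kept. With the q threshold it ranked 16 and spanned 80485 bp with 17 peaks. With a gap of 5 kb it ranked 62 and spanned 20789 bp with 8 peaks, without the deepest H3K27ac peaks of EEFSEC. With a gap of 20 kb it ranked 4 and spanned 285387 bp with 52 peaks. Of 56 alternative percentiles for single genes, 47 stayed within 1.5 times of the reported one. The other 9 were of GATA1, GATA3, GATA5 and GATA6, and for H3K27ac around GATA3 they were 3.87 with the q threshold, 4.82 with at least 10 fragments, 14.2 with 50 kb and 45.2 over the body. With 50 kb either side, GATA2 stood at percentile 87.9 for H3K27ac and 64.6 for H3K4me1, in a window that does not reach EEFSEC. No paired analysis was possible because each antibody had 1 library. No sample could be left out for the same reason. Depth limits the shallow peaks most, those of GATA3, GATA4 and GATA5 holding 5 to 9 fragments.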
